A study of Rattus norvegicus with 15 samples.

Results

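The 9 genes described here encode channels that pass cations when a membrane is stretched, swollen or sheared, or that act in such responses: Piezo1, Piezo2, Trpc1, Trpc6, Trpm4, Trpv2, Trpv4, Pkd1 and Pkd2. They were taken by name, and all 9 were found, each on 1 row, among the 34357 genes with an identifier in the table. Their transcripts were measured by RNA-seq of total RNA from the cortex of the kidney and from mesenteric arteries. The animals were Dahl salt-sensitive (SS) rats, which are inbred and become hypertensive when fed salt. All samples are labelled male, and the labels give no age. The groups were 4 wild-type arteries, 4 deletion arteries, 3 wild-type kidneys and 4 deletion kidneys. In the deletion group 30.4 kb of noncoding sequence had been removed from chromosome 2 (60825801 to 60856216, build rn7). This interval matches the human rs1173771 linkage region near Npr3, and the study asked which genes respond to its loss. None of the 9 genes lies on chromosome 2. No label says whether each library came from its own animal, so the p-values measure the spread between these libraries, which may be technical.

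Resistance arteries such as those of the mesentery constrict when the pressure inside them rises and widen when flow along them increases. Channels of the TRP family take part in the depolarisation and calcium entry of stretched smooth muscle, and Piezo1 opens directly under membrane tension in endothelium and other cells. In the kidney, cells of the tubule and of the glomerular filter also meet flow and stretch, and polycystin-1 and polycystin-2 act together in the primary cilium of tubule cells. Mutations of their genes cause autosomal dominant polycystic kidney disease.

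RefSeq promoters (250 bases before to 50 after the start, build GRCr8, a later build than the rn7 of the expression table) were available for 7 of the 9 genes. Those of Pkd1, Pkd2 and Trpv4 are shown because Pkd1 and Pkd2 encode partners whose levels stood in another proportion in each tissue, and because Trpv4 was the member higher in kidney. They lie at chr10:14078429-14078728 on the plus strand, chr14:5585091-5585390 on the minus strand and chr12:47598938-47599237 on the plus strand. Capitals mark the GC box GGGCGG on either strand.
Pkd1: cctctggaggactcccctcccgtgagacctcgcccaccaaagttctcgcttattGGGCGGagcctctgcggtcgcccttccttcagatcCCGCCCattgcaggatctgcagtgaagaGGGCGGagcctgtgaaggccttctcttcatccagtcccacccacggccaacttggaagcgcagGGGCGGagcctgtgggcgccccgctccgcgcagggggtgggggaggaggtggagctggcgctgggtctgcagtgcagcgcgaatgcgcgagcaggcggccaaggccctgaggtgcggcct
Pkd2: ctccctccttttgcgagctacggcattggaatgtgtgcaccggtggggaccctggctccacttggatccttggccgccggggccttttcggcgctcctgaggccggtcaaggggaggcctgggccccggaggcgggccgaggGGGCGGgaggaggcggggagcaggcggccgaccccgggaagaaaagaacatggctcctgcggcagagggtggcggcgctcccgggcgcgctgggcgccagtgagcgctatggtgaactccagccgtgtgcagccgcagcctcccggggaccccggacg
Trpv4: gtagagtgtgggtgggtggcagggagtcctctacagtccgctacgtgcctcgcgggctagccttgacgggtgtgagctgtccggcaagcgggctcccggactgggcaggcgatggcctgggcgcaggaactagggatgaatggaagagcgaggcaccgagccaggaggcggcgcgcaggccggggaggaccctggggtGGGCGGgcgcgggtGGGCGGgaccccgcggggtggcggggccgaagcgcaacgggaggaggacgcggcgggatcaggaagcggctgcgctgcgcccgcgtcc
The GC box occurred 4 times in the Pkd1 window, 1 time in that of Pkd2 and 2 times in that of Trpv4. It was present in 5 of the 7 member promoters and in 33.1% of 33469 RefSeq promoters of the same length. The TATA box TATAAA and the CArG box, a site bound by serum response factor, were in 0 of the 7, against 14.2% and 1.64% of all promoters. The 7 windows held 58.7% to 73.7% G and C, and the median over all promoters was 51.7%.

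Several libraries need naming before the results. In the library labelled kidney wild-type 3, Xist stood at 81.1 FPKM (fragments scaled by gene length and library size), against 0.0989 to 1.3 in the other 14, and the Y-linked gene Eif2s3y was listed at 0, against 24.1 to 39.6, so its sex-linked genes went against the label. Haemoglobin transcripts took 33% of the summed FPKM in artery wild-type 4 and 1.61% to 12% in the other 7 arteries. The tissues carried their markers: 6 smooth muscle markers summed to 1232 to 2564 FPKM in the arteries and 32.7 to 65.8 in the kidneys, and 4 proximal tubule markers to 1.35 to 3.77 and 1426 to 2102. The arteries also held fat, with 5 adipocyte markers at 1318 to 2532 FPKM, so they are not pure vessel wall. Read depths are unknown, and the summed FPKM ran from 285679 to 433477 in arteries and from 376270 to 459847 in kidneys. The only gene model within the deleted interval, LOC108350170, was listed at 0 in every library, and so it offers no check of genotype.

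Artery and kidney cortex differed in all 9 channel genes, 8 of them higher in artery and Trpv4 higher in kidney, although the Trpc6 call was lost under 8 of 23 alternatives. The contrasts in level ranged from 9.001-fold for Piezo1 to 1.36-fold for Pkd2 and Trpc6 in the direction of artery, and Trpv4 was 7.81-fold higher in kidney. Folds are ratios of FPKM + 0.5 from the limma fit, which understates the change of low genes, and are given with 95% confidence intervals. Differences of this kind were common: limma called 77% of 16856 genes between the tissues at an adjusted p under 0.05, 41.8% higher and 35.2% lower in artery. An unadjusted p under 0.05 was reached by 9 of 9 members and by 78.5% of all genes. The median log2 difference was 0.86 over the members and 0.11 over all genes. With median-of-ratios scaling the median of all genes was -0.03, 8 of 9 members were called (not Trpc6), and each member kept its direction, from 3.03 for Piezo1 to -3.10 for Trpv4. In whole tissue, fewer cells of a type and less RNA per cell cannot be told apart.

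**Figure D1:**
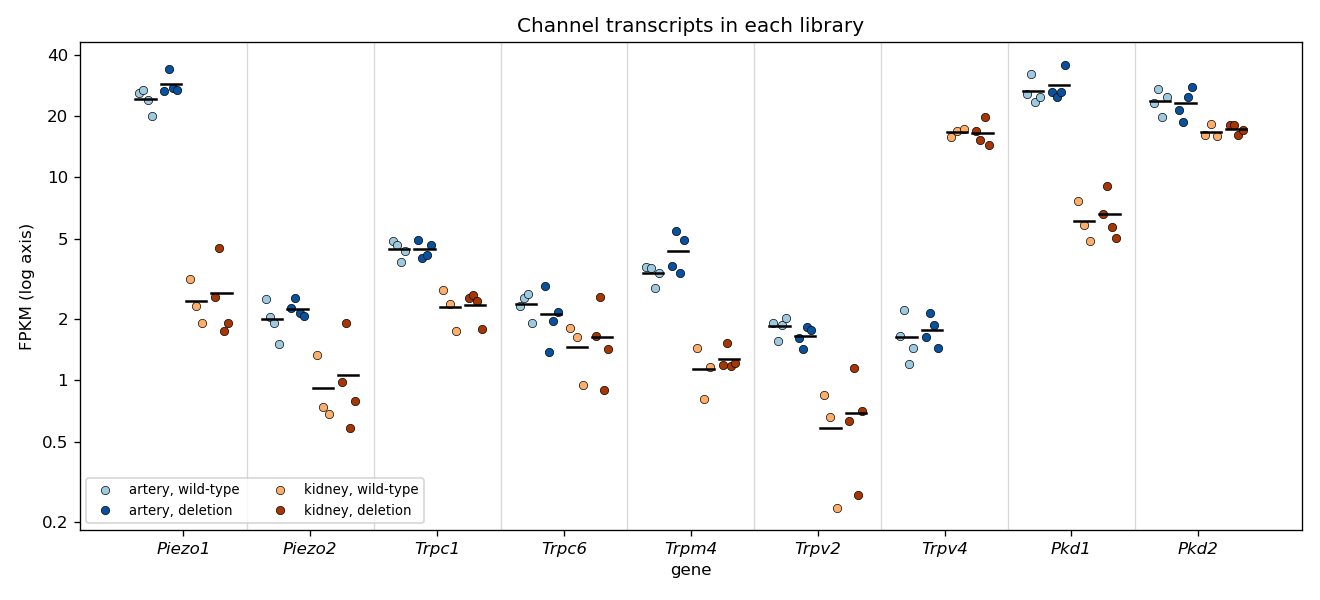
FPKM of each channel gene (log axis) in every library, with points for libraries and black bars for group means, by tissue and genotype. Piezo1 lies between 20.03 and 34.3 in all arteries and between 1.75 and 4.49 in all kidneys, and Trpv4 lies the other way round, between 1.21 and 2.23 in arteries and between 14.4 and 19.8 in kidneys.

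Piezo1 (chromosome 19, 50544580 to 50606812), the tension-gated channel of endothelium and red cells, had arterial FPKM values of 25.9, 27.0, 24.1 and 20.03 without the deletion and of 26.6, 34.3, 27.6 and 26.9 with it. In the wild-type kidneys it stood at 3.15, 2.34 and 1.92 FPKM, and in the deletion kidneys at 2.59, 4.49, 1.75 and 1.92. The tissues did not overlap, and every artery exceeded the highest kidney, deletion 2. The artery level was 9.001 times that of kidney (7.17 to 11.3, limma adjusted p = 2.59e-11), and 2.52% of all genes were called higher in artery by at least as much.

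Piezo2 (chromosome 18, 56468449 to 56844984), the channel of touch and proprioception in sensory neurons, was far lower. Wild-type arteries held 2.52, 2.05, 1.92 and 1.51 FPKM of it, deletion arteries 2.28, 2.55, 2.14 and 2.07. Wild-type kidneys held 1.33, 0.736 and 0.68 FPKM, deletion kidneys 0.982, 1.91, 0.583 and 0.788. Kidney deletion 2 lay inside the range of the arteries, and the other 6 kidneys lay below it. The artery level was 1.81 times that of kidney (1.41 to 2.32, limma adjusted p = 0.000248). Markers of nerve and Schwann cells summed to 104 to 292 FPKM in arteries and 4.95 to 9.06 in kidneys, and their part in the Piezo2 level was not tested.

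Among the canonical TRP channels, Trpc1 (chromosome 8, 96263322 to 96314220), a subunit that assembles with other TRPC proteins, had a mean of 4.43 ± 0.398 FPKM over the 8 arteries and 2.34 ± 0.407 over the 7 kidneys (SD). The artery level was 1.75 times that of kidney (1.49 to 2.06, limma adjusted p = 5.43e-06), with no overlap. Trpc6 (chromosome 8, 5759387 to 5864000), a diacylglycerol-activated channel of smooth muscle and of podocytes, had means of 2.24 ± 0.494 (SD, n = 8) and 1.57 ± 0.571 FPKM (SD, n = 7). Its tissues overlapped, with artery deletion 2 at 1.38 and kidney deletion 2 at 2.59 FPKM. The artery level was 1.36 times that of kidney (1.04 to 1.76, limma adjusted p = 0.0348), the narrowest call of the 9. The Trpc6 call was lost with median-of-ratios scaling (adjusted p = 0.0656) and on leaving out any 1 of 7 libraries, artery deletion 1 or 4, artery wild-type 2 or 3, kidney deletion 3 or 4, or kidney wild-type 3 (adjusted p = 0.0551 to 0.108).

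Trpm4 (chromosome 1, 95781805 to 95812095), a calcium-activated channel that carries monovalent cations and depolarises arterial muscle, had a mean of 3.86 ± 0.866 FPKM over the 8 arteries and 1.22 ± 0.229 over the 7 kidneys (SD). The artery level was 2.54 times that of kidney (2.11 to 3.05, limma adjusted p = 7.12e-08). Trpv2 (chromosome 10, 47265524 to 47294263), a calcium-permeable vanilloid channel, averaged 1.76 ± 0.204 (SD, n = 8) and 0.644 ± 0.317 FPKM (SD, n = 7). The artery level was 2.05 times that of kidney (1.61 to 2.61, limma adjusted p = 3.15e-05). Neither gene overlapped between the tissues.

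Trpv4 (chromosome 12, 41938533 to 41977517), which opens on cell swelling and serves endothelial dilation and flow sensing in the distal nephron, ran the other way. Wild-type arteries held 1.66, 2.23, 1.21 and 1.45 FPKM of it, deletion arteries 1.63, 2.16, 1.88 and 1.44. Wild-type kidneys held 15.9, 16.8 and 17.2 FPKM, deletion kidneys 16.9, 15.2, 19.8 and 14.4. Every kidney was above every artery, and the kidneys varied little, with a coefficient of variation of 10.4%. The kidney level was 7.81 times that of artery (6.63 to 9.21, limma adjusted p = 1.09e-12), and 4.28% of all genes were called higher in kidney by at least as much.

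Pkd1 and Pkd2, partners in the polycystin complex, were not in the same proportion in the tissues. Pkd1 (chromosome 10, 13573779 to 13621138), which encodes the large receptor-like protein polycystin-1, had values of 25.6, 32.3, 23.5 and 24.9 FPKM in wild-type arteries, with 26.3, 24.9, 26.2 and 36.0 in deletion arteries. Wild-type kidneys held 7.62, 5.83 and 4.87 FPKM, deletion kidneys 6.58, 9.09, 5.7 and 5.06. Arteries exceeded kidneys without overlap, by 4.12 times (3.40 to 4.99, limma adjusted p = 7.44e-10). Pkd2 (chromosome 14, 5237135 to 5280455), which encodes the channel subunit polycystin-2, had a mean of 23.5 ± 3.34 FPKM over the 8 arteries and 17.1 ± 1.03 over the 7 kidneys (SD), a ratio of 1.36 (1.19 to 1.55, limma adjusted p = 0.00042). Its tissues did not overlap, although the lowest artery, at 18.6 FPKM, stood just above the highest kidney, at 18.3. Over the 9 members the tissues did not overlap in 7, against 50% of all genes.

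The order of the levels differed between the tissues. In artery Pkd1, Piezo1 and Pkd2 led at means of 27.5, 26.5 and 23.5 FPKM, and their ranges overlapped, so the ranges do not separate them. The ranges leave out that the genes share libraries. Within single arteries Pkd1 stood at 0.999 to 1.34 times Pkd2, with a median of 1.19. A gap followed, and the other members lay at 4.43 FPKM or below in the order Trpc1, Trpm4, Trpc6, Piezo2, Trpv2 and Trpv4, each overlapping the next. In kidney Pkd2 (17.1 FPKM) and Trpv4 (16.6 FPKM) led with overlapping ranges. Pkd1 followed at 6.39 FPKM and was apart from its neighbours on both sides. The rest ran from Piezo1 at 2.59 through Trpc1, Trpc6, Trpm4 and Piezo2 to Trpv2 at 0.644 FPKM, each overlapping the next.

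Ratios of related members within a library do not depend on how the library was scaled, and 4 such pairs were compared after the values had been seen. Each comparison was an exact two-sided permutation test of the mean log2 ratio, 12 tests in all, with Benjamini-Hochberg adjustment over the 12. Pkd1 stood at 0.999 to 1.34 times Pkd2 in the arteries (median 1.19, n = 8) and at 0.297 to 0.501 times in the kidneys (median 0.352, n = 7). The tissues were separated by 1.68 on the log2 scale (exact permutation p = 0.000155, the smallest that 6435 arrangements can give, adjusted p = 0.00062). Piezo1 stood at 10.3 to 13.4 times Piezo2 in the arteries and at 2.35 to 3.18 times in the kidneys, a log2 difference of 2.23 with the same exact permutation p and adjusted p. Trpv4 stood at 0.643 to 1.51 times Trpv2 in the arteries and at 13.3 to 73.3 times in the kidneys, a log2 difference of -4.93, again with that exact permutation p. These p-values add no separate support, since the pairs were chosen with the unequal tissue differences of their members already known.

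The Piezo ratio had the smallest spread of the pairs in each tissue, narrowly so in artery. Its log2 SD was 0.13 over the arteries and 0.17 over the kidneys, beside 0.15 and 0.30 for Pkd1/Pkd2. Between the kidneys Piezo1 itself varied 2.57-fold and Piezo2 3.28-fold. Trpc1 stood at 1.44 to 2.91 times Trpc6 in the arteries and at 1.02 to 2.75 times in the kidneys, and this pair did not pass (log2 difference 0.37, exact permutation p = 0.0825, adjusted p = 0.247). Between genotypes none of the 4 ratios passed in either tissue, with exact permutation p of 0.257 to 0.857 and adjusted p of 0.617 to 0.857. The smallest p those designs allow is 0.0286.

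**Figure D2:**
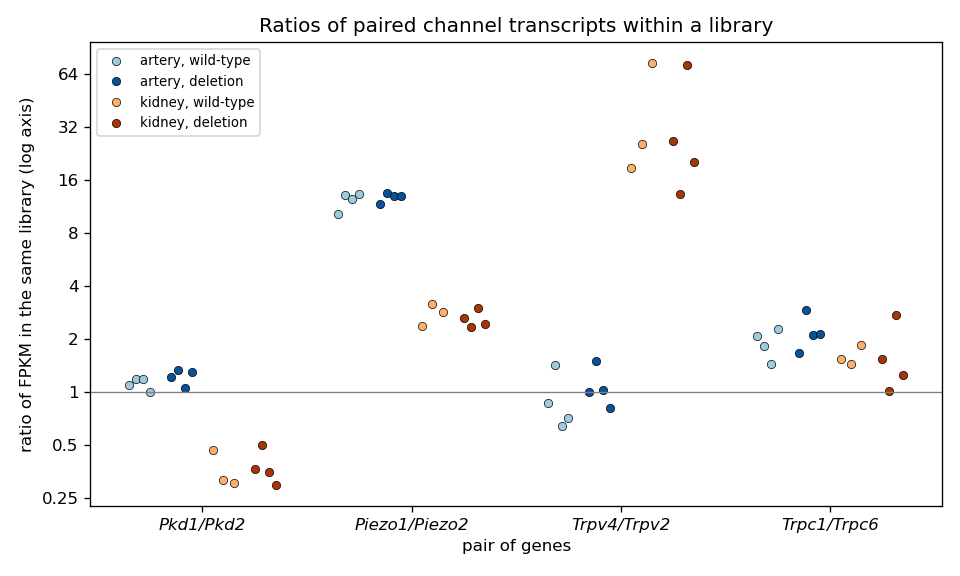
Ratio of the FPKM of related channel genes within each library (log axis), with points coloured by tissue and genotype and a grey line at a ratio of 1. Arteries and kidneys separate for Pkd1/Pkd2, Piezo1/Piezo2 and Trpv4/Trpv2 and overlap for Trpc1/Trpc6, while the genotypes mix in every pair.

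Deletion of the interval was not followed by a called difference in any of the 9 channel genes. In artery limma called 0 of 9 at an adjusted p under 0.05, with 0 at an unadjusted p under 0.05, and over all 16470 genes it called 0% and reached the unadjusted level in 5.24%. In kidney it again called 0 of 9, with 0 unadjusted, against 0% and 1.41% of 15444 genes. In both tissues the genotypes overlapped in each member, where 3.25% of all genes in artery and 2.55% in kidney did not overlap. The estimates were above 0 for 6 of 9 members in artery and 8 of 9 in kidney, beside 59.7% and 60.2% of all genes, and with median-of-ratios scaling for 5 of 9 members in each tissue, beside 49.6% and 43.2% of all genes. The median log2 difference of the members was 0.09 in artery and 0.10 in kidney, and that of all genes 0.04 in each.

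Trpm4 and Piezo1 had the smallest p in artery. Wild-type arteries held 3.62, 3.59, 2.87 and 3.40 FPKM of Trpm4, deletion arteries 3.65, 5.44, 3.39 and 4.94. Deletion 2 and deletion 4 were clearly above all wild-type arteries, deletion 1 just above them, and deletion 3 lay within their range. The log2 difference was 0.31 (SE 0.16, limma unadjusted p = 0.0904, adjusted p = 0.893), a ratio of 1.24 with an interval of 0.960 to 1.60. For Piezo1 the wild-type mean was 24.3 FPKM ± 3.06 (SD, n = 4), and the mean with the deletion was 28.8 ± 3.64 (SD, n = 4). Its log2 difference was 0.25 (SE 0.12, limma unadjusted p = 0.0754, adjusted p = 0.893), a ratio of 1.19 with an interval of 0.979 to 1.44.

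Artery deletion 2, the highest artery for Piezo1, Piezo2 and Trpm4 and the lowest for Trpc6, Trpv2 and Pkd2, also stood apart in its markers. It held the highest adipocyte sum (2532 FPKM, against 1318 to 2006 in the others) and the highest mesothelial sum (141, against 1.69 to 53.0), and the lowest fibroblast sum (828, against 1034 to 2034). The part of these cells in the channel values was not tested. Without this library the log2 difference was 0.16 for Piezo1 and 0.20 for Trpm4. Artery wild-type 4, rich in haemoglobin, was the lowest for Piezo1, and without it the Piezo1 difference was 0.159. Other single libraries moved both genes the other way. Without artery deletion 3 Trpm4 stood at 0.41 (limma unadjusted p = 0.0353, adjusted p = 0.713). Without artery wild-type 2 Piezo1 stood at 0.299 (limma unadjusted p = 0.0529, adjusted p = 0.768).

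The other members lay closer to 0 in artery. The log2 differences were 0.16 for Piezo2, 0.10 for Trpv4, 0.09 for Pkd1, 0.00106 for Trpc1, -0.04 for Pkd2, -0.12 for Trpv2 and -0.16 for Trpc6, with limma adjusted p of 0.910 to 0.999. Single libraries moved several of these values. Trpc6 stood at -0.0132 without artery deletion 2 and at -0.30 without artery deletion 1. Leaving out artery wild-type 3 gave 0.00379 for Trpv4, and leaving out wild-type 2 gave 0.23. Piezo2 was lowest (0.055) when wild-type 4 was dropped and highest (0.25) when wild-type 1 was dropped. For Trpv2 the extremes were -0.18 (wild-type 2 dropped) and -0.0656 (deletion 2 dropped). Over the 9 members the intervals of the artery ratio reached from 0.658 (Trpc6) to 1.60 (Trpm4), so larger changes than these lie outside the interval of every member. For Trpc1 the interval ran from 0.831 to 1.21.

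In kidney the log2 differences were 0.13 for Trpm4, 0.13 for Trpv2, 0.11 for Piezo2, 0.10 for Pkd1, 0.09 for Trpc6, 0.05 for Piezo1, 0.04 for Pkd2, 0.04 for Trpc1 and -0.02 for Trpv4, all with a limma adjusted p of 0.999. Trpv4 and Pkd2 were measured most closely, with ratios of 0.988 (0.808 to 1.21) and 1.03 (0.872 to 1.22). Trpv2 was measured least closely, at 1.097 (0.681 to 1.77). Leaving out kidney wild-type 3, whose sex-linked genes went against its label, turned the sign of several members. The values were then -0.11 for Trpc1, -0.11 for Trpc6, -0.12 for Trpv2, -0.09 for Piezo1 and -0.04 for Pkd1. Piezo2 stood at -0.00917 and Trpv4 at 0.00796. The count of 8 of 9 members above 0 in kidney thus did not hold without this library, and still no member was called. Nor did it hold without kidney deletion 2, where Trpc1 stood at -0.0128, Trpc6 at -0.10 and Trpv2 at -0.0386. Piezo1 then stood at -0.19, Piezo2 at -0.12 and Pkd1 at -0.0593, and again no member was called. No difference of the deletion effect between the tissues was called in any member (0 of 9 called and 0 at an unadjusted p under 0.05, beside 0% and 4.39% of 16856 genes), with artery minus kidney values from -0.26 for Trpc6 to 0.20 for Piezo1 on the log2 scale (limma adjusted p of 0.949 to 0.998).

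**Figure D3:**
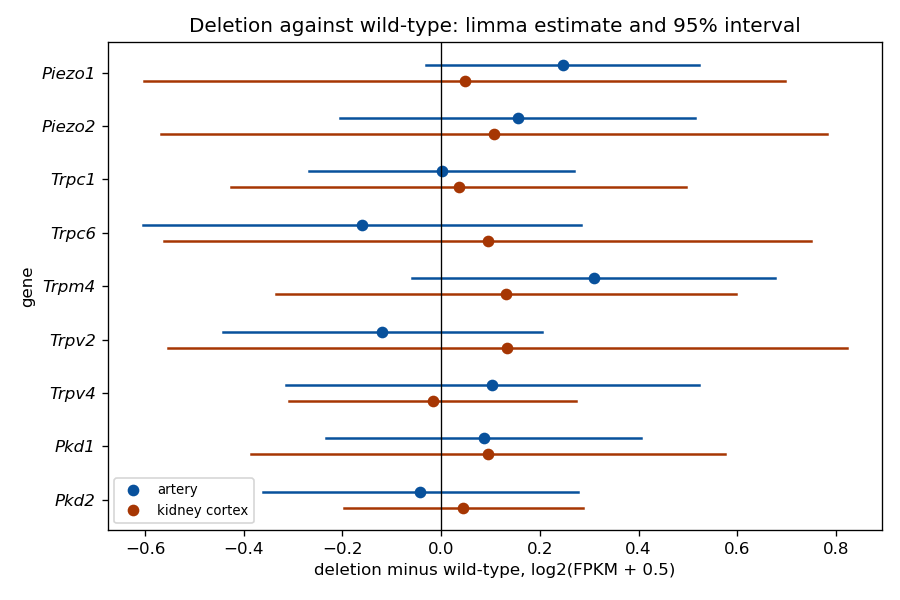
Deletion minus wild-type difference on the log2(FPKM + 0.5) scale for each channel gene, with points for the limma estimate and lines for its 95% interval, in artery and kidney cortex. Every interval crosses 0, and Trpm4 (0.31) and Piezo1 (0.25) in artery lie farthest to the right.

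Some kidneys stood apart from the others in most members, whatever their genotype. Deletion 2 and wild-type 1 were the 2 highest of the 7 kidneys for Piezo1, Piezo2, Trpc1, Trpc6, Trpm4, Trpv2 and Pkd1, that is for 7 of 9 members and in both genotypes, while this pair was highest for 22.5% of 15444 genes. The pair was named after the values had been seen, so these shares describe it and are not a test. Trpv2 stood at 1.15 and 0.848 FPKM in these kidneys and at 0.235 to 0.71 in the other 5. Pkd1 stood at 9.09 and 7.62 FPKM against 4.87 to 6.58. Trpv4, at 15.2 and 15.9 against 14.4 to 19.8, and Pkd2, at 18.1 and 16.2 against 15.97 to 18.3, did not follow. With median-of-ratios scaling the pair was highest for 5 of 9 members (not Trpc1 and Trpm4), beside 12.8% of all genes.

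The same kidneys were highest for all 5 podocyte markers, among them Nphs1 and Wt1, with either scaling. The podocyte sum was 202 FPKM in deletion 2 and 158 in wild-type 1, and 96.1 to 101.4 in the other 5 kidneys. The sum of 6 endothelial markers was 98.5 and 95.2, against 66.3 to 81.5, and the pair was highest for 5 of the 6 as deposited and for 3 of the 6 with median-of-ratios scaling. The 3 markers listed for intestinal epithelium summed lowest in this pair, at 158.5 and 174.6 FPKM against 221.0 to 250.4. This sum is not read as intestinal cells. It was higher in every kidney than in any artery, and 1 of its genes, Fabp2, was at 0 in the wild-type kidneys. The proximal tubule sum was lowest in deletion 2 (1426 FPKM), and wild-type 1 (1905) lay within the other kidneys (1877 to 2102). Markers of the distal convoluted tubule (641 and 488 FPKM against 267.8 to 466.4) and of nerve and Schwann cells (9.06 and 8.06 against 4.95 to 6.72) were also highest in this pair. The part of podocytes and of the endothelial, tubule, nerve and Schwann cells in the channel values was not tested. With both kidneys left out, limma again called 0 of 9 members between the genotypes and 9 of 9 between the tissues, where Piezo1 stood 3.37 and Trpv4 -3.00 from kidney on the log2 scale.

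**Figure D4:**
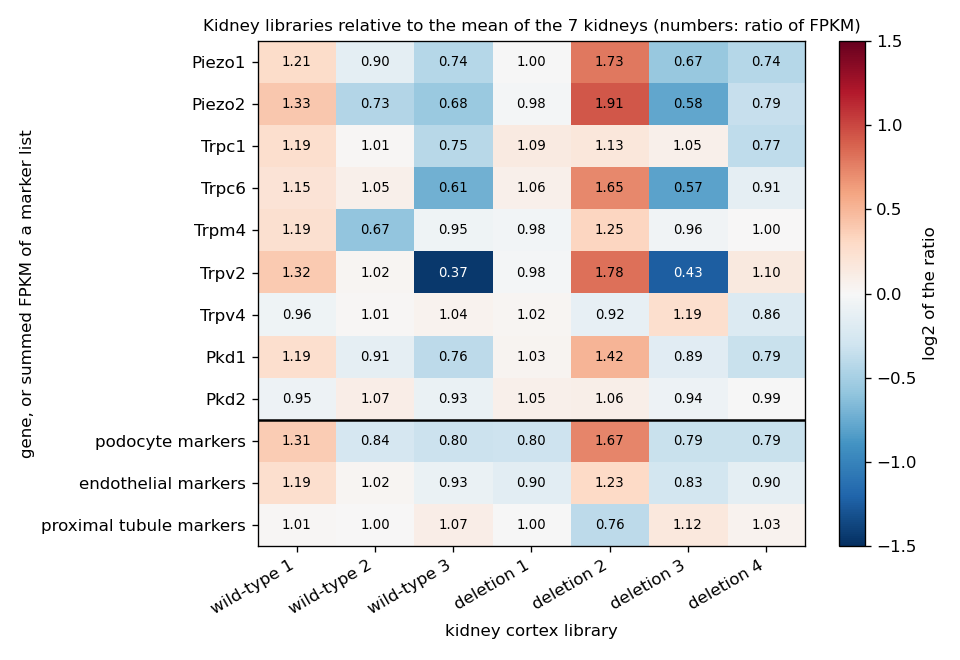
Level of each channel gene, and summed FPKM of 3 marker lists, in each kidney library relative to the mean of the 7 kidneys, with the ratio printed in each cell and the colour showing its log2. Deletion 2 and wild-type 1 are the highest for Piezo1, Piezo2, Trpc6, Trpv2 and Pkd1 as for the podocyte markers (1.67 and 1.31), while Trpv4 and Pkd2 stay between 0.865 and 1.19 in every kidney.

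The relatives and partners of these channels were described from 5 lists of 68 genes in all. Between genotypes limma called 0 of the 41 tested in artery (5 at an unadjusted p under 0.05: Homer1, Mdfi, Pacsin3, Prkcsh and Tmem63c, beside 5.24% of all genes) and 0 of 49 in kidney (0 unadjusted). Between tissues it called 43 of 51, with 15 higher and 28 lower in artery, beside 77% of all genes called, 41.8% higher and 35.2% lower. The counts of each list are to be read against these shares. Between tissues the filter used the mean over all 15 libraries. A gene under 0.5 FPKM in artery thus entered only through kidney, and its direction was set by the filter. Of the 20 other TRP channels 14 were tested, 3 called higher and 8 lower in artery. Trpv5, a calcium channel of the distal tubule, had a mean of 0.0276 ± 0.0621 FPKM over the 8 arteries and 7.43 ± 3.91 over the 7 kidneys (SD). Mcoln3, an endolysosomal channel, averaged 0.229 ± 0.24 and 4.66 ± 1.91 FPKM, and Trpm6, the magnesium channel of the distal tubule, 1.14 ± 0.823 and 7.28 ± 1.49 (same n). The higher level in kidney seen for Trpv4 was shared by 8 of the 11 called TRP channels outside the members. Of the 20, 11 passed the filter over the arteries and 13 over the kidneys. Trpv5 and Mcoln3 entered through kidney alone, so this count partly reflects the filter.

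Of 13 other mechanically gated channels 9 were tested, with 1 higher and 7 lower in artery. Of the 13, 5 passed the filter over the arteries and 8 over the kidneys, so this count too partly reflects the filter. The subunits of the epithelial sodium channel Scnn1g, Scnn1a and Scnn1b averaged 9.82 ± 3.62, 10.8 ± 3.17 and 9.32 ± 3.38 FPKM in kidney (SD, n = 7) and 0.617 or less in artery. Scnn1g and Scnn1a, at 0.163 and 0.311 FPKM in artery, entered through kidney alone. Among 15 channel partners 13 were tested, with 7 higher and 5 lower in artery. Cav1, which shapes caveolae, averaged 301 FPKM ± 27.0 in artery (SD, n = 8) and 6.57 ± 1.91 in kidney (SD, n = 7), and Abcc9, a sulfonylurea receptor, 50.5 ± 5.78 and 5.67 ± 1.70.

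Genes that mature the polycystins or build the cilium went partly against the order of Pkd1. Of 14 tested, 4 were called higher and 7 lower in artery. Pkhd1, the gene of recessive polycystic kidney disease, had a mean of 0.0505 ± 0.0671 FPKM over the 8 arteries and 55.4 ± 15.1 over the 7 kidneys (SD). It entered through kidney alone. Prkcsh, the beta subunit of glucosidase II, averaged 26.1 ± 3.04 and 55.7 ± 9.58 FPKM, and Dnajb11, a chaperone of the endoplasmic reticulum, 13.8 ± 1.03 and 26.7 ± 3.03 (same n). Of 6 other polycystin genes 1 was tested, Pkd2l2, at 0.364 ± 0.152 in artery and 1.83 ± 0.625 FPKM in kidney, and it was called lower in artery. Pkd2l2 also entered through kidney alone.

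The genes most like each member over the 15 libraries were named by the root mean square distance of their centred log2 values, among 12878 genes. For Piezo1 they were Lrp1, Sntb1 and Adamts5 (distances 0.149, 0.164 and 0.164), and for Trpv4 Esrp2, Smim1 and Arhgap24 (0.163, 0.195 and 0.204). For Pkd1 they were Camk2g, Svil and Ttc28 (0.118, 0.124 and 0.136), and for Pkd2 Fam104a, Tbc1d23 and Pofut2 (0.105, 0.106 and 0.109). Piezo2 was closest to Alms1, Rbm5 and Dll4 (0.111, 0.128 and 0.143), Trpm4 to Kcns3, Zfp385a and Sort1 (0.142, 0.159 and 0.159), and Trpc1 to Frs2, Ubr1 and Mkrn2 (0.0922, 0.106 and 0.107). Trpc6 was closest to Scai, Cpsf6 and Ddx39b (0.169, 0.171 and 0.175), and Trpv2 to Tmem65, Zbtb25 and Zfp386 (0.143, 0.159 and 0.161). The distances include the contrast between the tissues and were not tested.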

How the data were processed

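The deposited table holds 1 FPKM column per library, which the authors made from total RNA. How they were computed is not given in the sources used. Per the submitters' processing notes, the tools were HISAT2 2.2.1, Trim Galore 0.6.2 and DESeq2 1.46.0 on build rn7, their roles unstated. Of 40694 rows, 34357 carry a gene identifier and were kept. A coverage column of no stated sample was not used here. FPKM values depend on what else a library holds, so a library rich in 1 transcript shows the others lower.

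Values were analysed as log2(FPKM + 0.5). Those genes whose mean reached 0.5 FPKM over the libraries compared were tested with limma 3.58.1 in R 4.3.3 (trend and robust moderation, two-sided, Benjamini-Hochberg over all genes tested, called under 0.05). All 9 members passed the filter in each comparison. The fit was checked on simulated data. Artery against kidney weighted both genotypes equally. Members and lists were chosen with earlier results of these data known. The named genes were all members, called relatives (between tissues the 3 with the largest difference per list, of which 1 is not reported here), and the 3 nearest genes per member from genes whose mean reached 1 FPKM. Exact permutation tests used scipy 1.17.1. As alternatives the fits were repeated with median-of-ratios scaling, array weights, non-robust moderation, a pseudocount of 0.1 or 1, a filter at 1 FPKM or none, the replicate number as a block, and each library left out. Leaving out both kidneys deletion 2 and wild-type 1, and the within-library ratios, were chosen after seeing the data. Figures were drawn with matplotlib 3.10.9.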

Additional observations from a re-analysis of the deposited data

Results flagged for a closer look

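Of 27 combinations of a member and a group of 4 libraries, 3 held 1 library far from the rest of its group, a gap of over 0.829 of the group's range; chance alone flags about 1 in 20 groups. Piezo1 stood at 34.3 FPKM in artery deletion 2 and at 26.6 to 27.6 in the other deletion arteries. Pkd1 stood at 36.0 FPKM in artery deletion 4 and at 24.9 to 26.3 in the others. Trpm4 stood at 1.52 FPKM in kidney deletion 2 and at 1.17 to 1.22 in the others.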

How the results depend on the processing

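The counts of members called kept to 0, 0 and 0 for the deletion comparisons and their difference, and to 8 or 9 between the tissues, under every alternative run, the loss to 8 being Trpc6. All 9 tissue differences kept their direction under each of these alternatives, and the 4 within-library ratios did so on leaving out each library. Without single libraries the log2 differences of the ratios ran from 1.63 to 1.75 for Pkd1/Pkd2, 2.197 to 2.27 for Piezo1/Piezo2, -5.12 to -4.71 for Trpv4/Trpv2 and 0.27 to 0.51 for Trpc1/Trpc6. Small deletion estimates changed sign, none of them called, and the cause was not tested. With median-of-ratios scaling Trpc1 stood at -0.0451 in artery and -0.0318 in kidney, and in kidney Piezo1 at -0.0248 and Pkd2 at -0.0369. With array weights the kidney values were -0.0427 for Trpc1, -0.114 for Trpc6, -0.0625 for Trpv2, -0.0282 for Piezo1 and -0.0635 for Pkd2, and Trpc6 had 0.0557 for the difference between tissues; array weights also called 282 of all genes in kidney, against 0. Trpm4 in kidney then stood at 0.37 (limma unadjusted p = 0.0127, adjusted p = 0.102). Without kidneys deletion 2 and wild-type 1, Piezo1 stood at -0.0341 and Pkd2 at -0.000825. Leaving out single libraries, the artery values ran from -0.0309 to 0.182 for Pkd1, -0.131 to 0.056 for Pkd2 and -0.0583 to 0.0432 for Trpc1. The kidney values ran from -0.11 to 0.16 for Trpc1, -0.11 to 0.28 for Trpc6, -0.0212 to 0.263 for Trpm4, -0.12 to 0.32 for Trpv2, -0.103 to 0.0459 for Trpv4, -0.19 to 0.21 for Piezo1, -0.12 to 0.31 for Piezo2 and -0.0593 to 0.255 for Pkd1.

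With the replicate number as a block 0 members and 0 of all genes were called in either tissue, and Trpv4 in kidney stood at 0.0459. Deviations of same-numbered libraries correlated across genes at 0.321, -0.342, 0.244 and 0.302 in artery and at 0.0819, -0.00785 and 0.273 in kidney. Not every sample correlated best with its own number. These values do not settle whether the numbers pair the samples. Trpv2 in kidney has no value with the filter at 1 FPKM. Without read counts, no counting error or limit of detection could be given for the low members.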
